A study of Mus musculus with 12 samples.

Results

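The circadian clock genes of the mouse iris described here are Per1, Per2, Per3, Ciart, Nr1d1, Nr1d2, Dbp, Hlf, Arntl (also called Bmal1) and Clock. Every probe set that the array's annotation gives to 1 of these 10 genes was taken, which is 24 of the 45037 probe sets that are not controls. Of these, 19 had a mean over all arrays at or above the filter of 5.653 on the log2 scale and were tested, and 5 lay below it. The iris is the pigmented diaphragm of the eye, and its RNA was measured on 12 Affymetrix arrays, 3 for each of 4 strains of mice aged 60 days. The control strain was C57BL/6J. B6-Lystbg-J mice carry a mutation in Lyst, a regulator of lysosome-related organelles, and are called B6-Lyst. B6-(Cg)TyrC-2J mice carry a mutation in Tyr, the rate-limiting enzyme of melanin synthesis, and are called B6-albino. B6.D2(Tryp1-Gpnmb-)/SJ mice carry mutations in both Tryp1 (now written Tyrp1, a melanosome enzyme) and Gpnmb (a melanosome membrane protein), and are called B6-D2 congenic. The C57BL/6J mice carry none of these named mutations, and each mutation is present in the whole animal rather than in the iris alone. Each array holds the irides of 2 animals pooled, so differences between single animals are not seen. The labels name no hour of dissection or light schedule.

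The clock is a feedback loop of transcription that runs in almost every tissue. CLOCK and BMAL1 bind E-boxes and switch on Per, Cry, Ciart, Nr1d and Dbp genes. PER and CRY proteins then repress CLOCK and BMAL1, NR1D1 and NR1D2 (REV-ERB proteins) repress Arntl at ROR elements, and DBP and HLF act at D-boxes, so that Arntl is high when many of its targets are low.

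Promoter sequence is shown for Ciart, Per3, Per1 and Arntl, so that the elements of this loop can be seen beside the values. RefSeq windows on GRCm38.p6 from 250 bases before to 50 bases after a listed start were found for 9 of the 10 genes, in 13 windows. No window was found for Per2, so its promoter is not shown. Both strands were searched for the E-box CACGTG, the variant CACGTT, the D-box TTATGTAA, the ROR element cores TAGGTCA and TAGGTTA, and the cAMP response element TGACGTCA. None of these motifs contains another. The stretches below are written 5′ to 3′ on the strand of the gene, with the matches in capitals.
Ciart: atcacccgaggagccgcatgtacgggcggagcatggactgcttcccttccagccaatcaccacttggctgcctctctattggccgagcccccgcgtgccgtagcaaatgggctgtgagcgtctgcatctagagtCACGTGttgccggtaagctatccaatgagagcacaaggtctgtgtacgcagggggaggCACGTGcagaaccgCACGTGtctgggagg
Per3: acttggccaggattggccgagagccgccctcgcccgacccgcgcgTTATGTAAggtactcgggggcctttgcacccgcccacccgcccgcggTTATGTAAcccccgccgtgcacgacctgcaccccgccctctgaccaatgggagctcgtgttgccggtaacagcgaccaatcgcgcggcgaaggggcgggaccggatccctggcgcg
Per1: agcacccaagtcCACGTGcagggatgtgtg
Arntl site 1: ggaaagTAGGTTAgtggtg
Arntl site 2: agaaagTAGGTCAgggacg
The Ciart stretch is chr3:95882258-95882478 on the minus strand, and its capitals are 3 E-boxes that begin 116, 58 and 44 bases before the start. At least 3 E-boxes were present in 0.0883% of all 32851 windows in the RefSeq table, and at least 1 in 7.15%. The Per3 stretch is chr4:151044708-151044915 on the minus strand, and its capitals are 2 D-boxes, a number reached by 0.0213% of windows. The Per1 stretch is chr11:69098771-69098800 on the plus strand and holds 1 E-box. Its listed start lies inside the annotated gene, chr11:69095108-69109965, downstream of the gene's first base. Both Arntl sites lie on the plus strand around 1 listed start, the first at chr7:113207499-113207517 with TAGGTTA and the second at chr7:113207535-113207553 with TAGGTCA. These cores were found in 1.44% and 2.61% of all windows. The listed start beside the Arntl sites also lies inside the annotated gene, chr7:113178471-113314126, downstream of the gene's first base. Hlf had 1 cAMP response element (1.79% of windows have at least 1) and Nr1d1 had 1 CACGTT on the opposite strand (4.68%). The windows of the other 3 genes, Nr1d2, Dbp and Clock, held none of these letters. A match is a description of the sequence and not a measured binding site.

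The arrays differed in ways that bear on the values that follow. The 5 smooth muscle, 6 pigment cell and 4 stroma markers of the iris were well expressed on all arrays, with means from 9.91 to 13.09, and none was called against C57BL/6J. Poly-A spike-in controls read 7.36 to 8.16 on the C57BL/6J arrays and 4.94 to 5.95 on the other 9. Poly-A spike-in level and the control strain thus cannot be told apart. Hybridization spike-in controls read 9.67 to 9.76 on the B6-Lyst arrays and 9.99 to 10.45 on the other 9. Their level and the B6-Lyst strain cannot be told apart either. Keratin Krt12, which marks corneal epithelium, was high on C57BL/6J replicate 1 (12.86), B6-albino replicate 1 (10.45) and B6-D2 congenic replicate 2 (13.81), and 5.96 to 7.12 elsewhere. The mean of 8 lens markers spanned 8.19 to 10.92 in C57BL/6J, 7.48 to 11.43 in B6-Lyst, 11.11 to 12.98 in B6-albino and 10.72 to 11.50 in B6-D2 congenic. The mean of 8 macrophage markers was 10.81 to 11.12 in B6-Lyst against 7.94 to 8.82 elsewhere, and all 8 were called higher in B6-Lyst than in C57BL/6J. The actin 3′ minus 5′ difference, a measure of RNA integrity, was 4.30 on C57BL/6J replicate 3 and 1.84 to 2.72 on the others. Since the arrays measured whole irides, fewer cells of a type and less RNA per cell cannot be told apart.

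The first question was whether clock genes differed between the control strain and each mutant strain. Per2, Per3, Ciart, Nr1d2 and Hlf fell in B6-Lyst, with decreases between 1.48-fold and 2.51-fold, and no clock probe set rose there. Ciart and Per2 also fell in B6-albino, where Clock rose, each on 1 probe set. In the B6-D2 congenic strain Per2 fell, on 1 probe set. The B6-albino calls of Per2, Ciart and Clock held in 2, 1 and 0 of the 6 fits that left out 1 array. The B6-D2 congenic call held in 1 of 6, and the B6-Lyst calls of Nr1d2 and Hlf in 2 and 1 of 6. Nr1d1, Per1 and Dbp passed the test in no strain, and Arntl had higher means in all 3 mutant strains without passing it.

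Calls were made where limma gave an adjusted p under 0.05 (Benjamini-Hochberg over 27022 tested probe sets). In B6-Lyst against C57BL/6J, 8 of the 19 tested clock probe sets were called, all lower, against 2.53% of all tested probe sets called and 1.28% called lower. In B6-albino, 3 of 19 were called, 2 lower and 1 higher, against 0.348% of all called (0.185% lower and 0.163% higher). In the B6-D2 congenic strain, 1 of 19 was called, lower, against 0.0407% (0.0333% lower). The median difference of the 19 probe sets was -0.57, -0.25 and -0.33 in the 3 comparisons, where the median of all tested probe sets was -0.02, 0.03 and 0.01. These 3 comparisons share the same 3 control arrays, so their values are given side by side and are not 3 independent results. The clock genes were also chosen with earlier results of these data known, and several probe sets read the same gene. The shares of all tested probe sets are therefore given for scale and are no test of the clock genes as a set. A test of any difference among the 4 strains called 7 of 19, against 2.09% of all tested probe sets. Those were both tested Per2 probe sets, Per3 1458176_at and 1442243_at, Ciart, and Clock 1435775_at and 1418659_at.

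**Figure D1:**
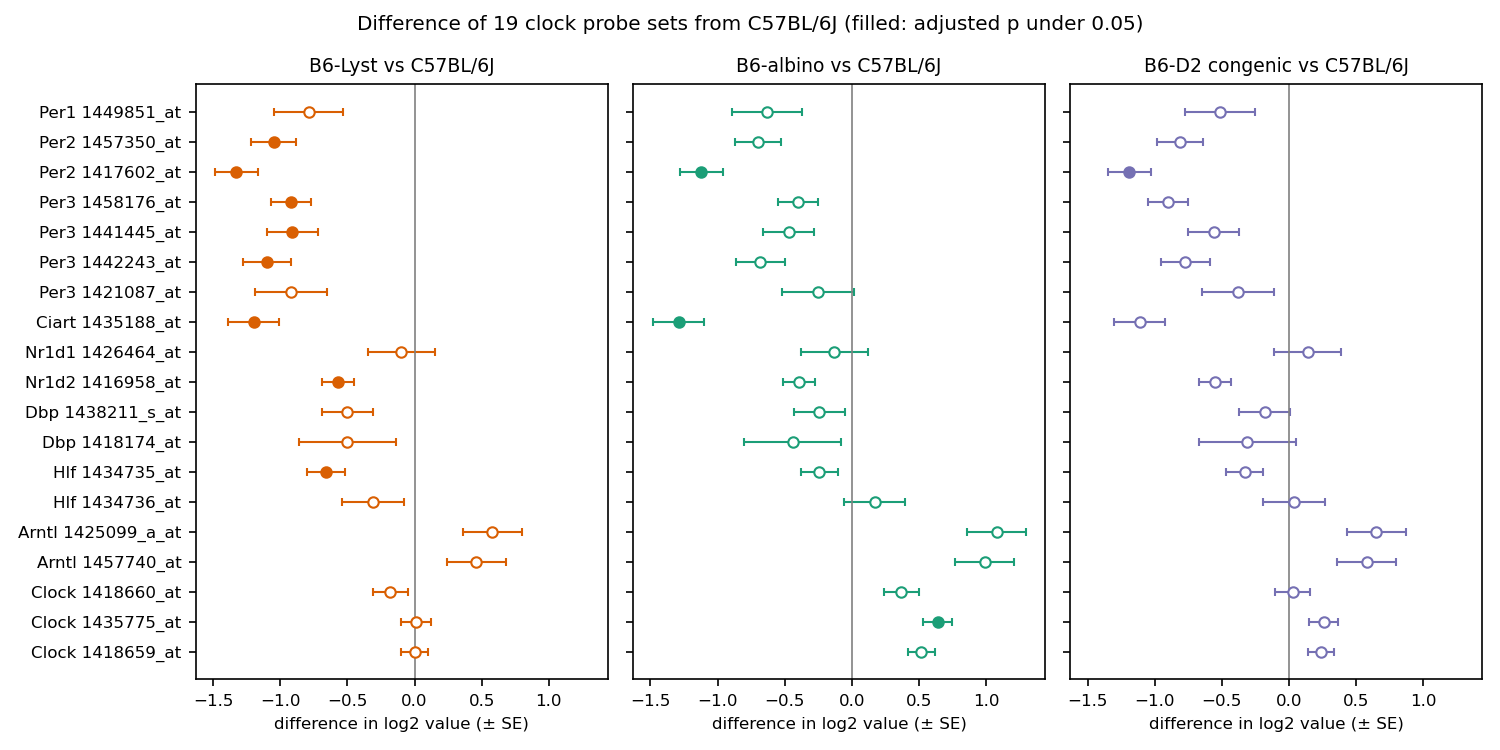
Difference of each of the 19 tested clock probe sets from C57BL/6J in log2 units (x axis, mutant strain minus control, bars ± SE), with 1 panel per mutant strain and filled points at an adjusted p under 0.05. Most Per, Ciart, Nr1d2, Dbp and Hlf points lie left of 0 and the Arntl points right of it, and the B6-Lyst panel has 8 filled points.

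Per2 encodes a repressor of CLOCK and BMAL1 and was measured by 3 probe sets. On 1417602_at the C57BL/6J arrays read 7.27, 7.49 and 7.57. B6-Lyst arrays read 6.13, 6.23 and 5.99, B6-albino arrays 5.95, 6.60 and 6.41, and B6-D2 congenic arrays 6.11, 6.37 and 6.27. All 9 mutant arrays lay below all 3 control arrays. Per2 on this probe set fell by 1.33 ± 0.16 (SE) in B6-Lyst, a 2.51-fold decrease (adjusted p = 0.000887, limma). It fell by 1.12 ± 0.16 in B6-albino (adjusted p = 0.0261) and by 1.19 ± 0.16 in B6-D2 congenic (adjusted p = 0.035). The B6-Lyst call held when any 1 of its 6 arrays was left out. The B6-albino call held only without C57BL/6J replicate 1 or without B6-albino replicate 2 (adjusted p 0.0296 to 0.117 over 6 fits), and the B6-D2 congenic call only without C57BL/6J replicate 1 (0.0371 to 0.145). With only the compared strains in the fit these 2 calls were lost (0.0997 and 0.208), as they were with the tissue marker covariates (0.379 and 0.273), and the first also without the 3 high-Krt12 arrays (0.129) and the second with the actin covariate (0.0657). The difference was -1.02 in B6-albino without the high-Krt12 arrays, and in B6-D2 congenic it was -1.09 with the tissue covariates and -1.17 with the actin covariate.

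On the second Per2 probe set, 1457350_at, C57BL/6J arrays read 7.45, 7.32 and 7.58, and B6-Lyst arrays 6.37, 6.52 and 6.29. B6-albino arrays read 6.54, 6.91 and 6.81, and B6-D2 congenic arrays 6.43, 6.47 and 7.01. Again no mutant array reached the lowest control array. Per2 on this probe set fell by 1.05 ± 0.17 in B6-Lyst (adjusted p = 0.00646), in all 6 fits that left out 1 array. The difference was -0.70 in B6-albino (adjusted p = 0.0827) and -0.81 in B6-D2 congenic (adjusted p = 0.101), neither of which passed. The third probe set, 1417603_at, lay below the filter, at 5.34 to 5.67 in C57BL/6J and 4.85 to 5.33 on the 9 mutant arrays.

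Per3, another member of the PERIOD family, was read by 6 probe sets, of which 4 were tested. On 1458176_at, C57BL/6J arrays read 9.65, 9.29 and 9.46 and B6-Lyst arrays 8.60, 8.58 and 8.45. B6-albino arrays read 8.98 to 9.22, and B6-D2 congenic arrays 8.39, 8.45 and 8.84. No mutant array reached the controls, and the B6-albino arrays lay nearest to them. Per3 on this probe set fell by 0.92 ± 0.15 in B6-Lyst (adjusted p = 0.00639). The difference was -0.40 in B6-albino (adjusted p = 0.171) and -0.90 in B6-D2 congenic (adjusted p = 0.0613). The B6-D2 congenic difference passed after quantile normalization (adjusted p = 0.016) and after scaling to the 75th percentile (0.0231).

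Per3 also fell in B6-Lyst on 1442243_at, by 1.10 ± 0.18 (adjusted p = 0.00765). The C57BL/6J arrays read 8.80, 8.96 and 9.12 there, and the B6-Lyst arrays 7.92, 7.93 and 7.74. On 1441445_at the B6-Lyst decrease was 0.91 ± 0.19 (adjusted p = 0.0324), a call that held only without C57BL/6J replicate 1 among the 6 fits (0.0445 to 0.145). The calls on 1458176_at and 1442243_at held in 6 of 6. Without the 3 arrays with high Krt12, the B6-Lyst adjusted p was 0.0501 on 1458176_at and 0.0675 on 1441445_at, and on the latter it was 0.0537 with the actin covariate. On the fourth probe set, 1421087_at, 1 B6-Lyst array (8.16) lay near the controls (8.47, 8.52 and 8.79), and the difference of -0.92 ± 0.27 did not pass (adjusted p = 0.1). None of the 4 tested Per3 probe sets was called in the other 2 mutant strains.

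Per1, the PERIOD gene that responds most directly to light in the brain's clock, was read by 1 probe set, 1449851_at. The C57BL/6J arrays read 9.01, 8.57 and 8.39. B6-Lyst arrays read 8.08, 8.07 and 7.43, B6-albino arrays 7.72, 8.48 and 7.88, and B6-D2 congenic arrays 8.10, 7.83 and 8.50. The B6-Lyst arrays all lay below the controls, and 1 array of each other mutant strain overlapped them. The differences were -0.79 ± 0.26 (adjusted p = 0.133), -0.63 (0.214) and -0.51 (0.321), and none passed.

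Ciart encodes CHRONO, a repressor that acts on BMAL1, and its only probe set, 1435188_at, separated the control strain from the rest. The C57BL/6J arrays read 7.99, 8.29 and 7.93. B6-Lyst arrays read 7.07, 7.11 and 6.42, B6-albino arrays 6.55, 6.97 and 6.81, and B6-D2 congenic arrays 6.79, 7.07 and 7.02. The highest of the 9 mutant arrays, at 7.11, was below the lowest control array, at 7.93. Ciart fell by 1.20 ± 0.19 in B6-Lyst, a 2.30-fold decrease (adjusted p = 0.00738). In B6-albino it fell by 1.29 ± 0.19, a 2.44-fold decrease (adjusted p = 0.0327). In B6-D2 congenic the difference was -1.11 ± 0.19 (adjusted p = 0.0663), which did not pass as deposited but did after scaling to the 75th percentile (0.0487). Between the mutant strains the Ciart means of 6.87, 6.78 and 6.96 were closer together than the arrays within B6-Lyst (SD 0.39).

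The Ciart call in B6-Lyst held in all 6 fits that left out 1 array, and was lost with only the B6-Lyst and C57BL/6J arrays in the fit (adjusted p = 0.0574). The B6-albino call held only without B6-albino replicate 2 (0.0392 to 0.149 over 6 fits) and was lost when marker means of lens, retina and cornea entered as covariates (0.379), without the 3 arrays with high Krt12 (0.258) and with only the compared strains (0.0692). The difference was -1.22, -1.22 and -1.29 in those fits, and limma called 0, 0 and 15 of all 27022 probe sets in this comparison there.

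**Figure D2:**
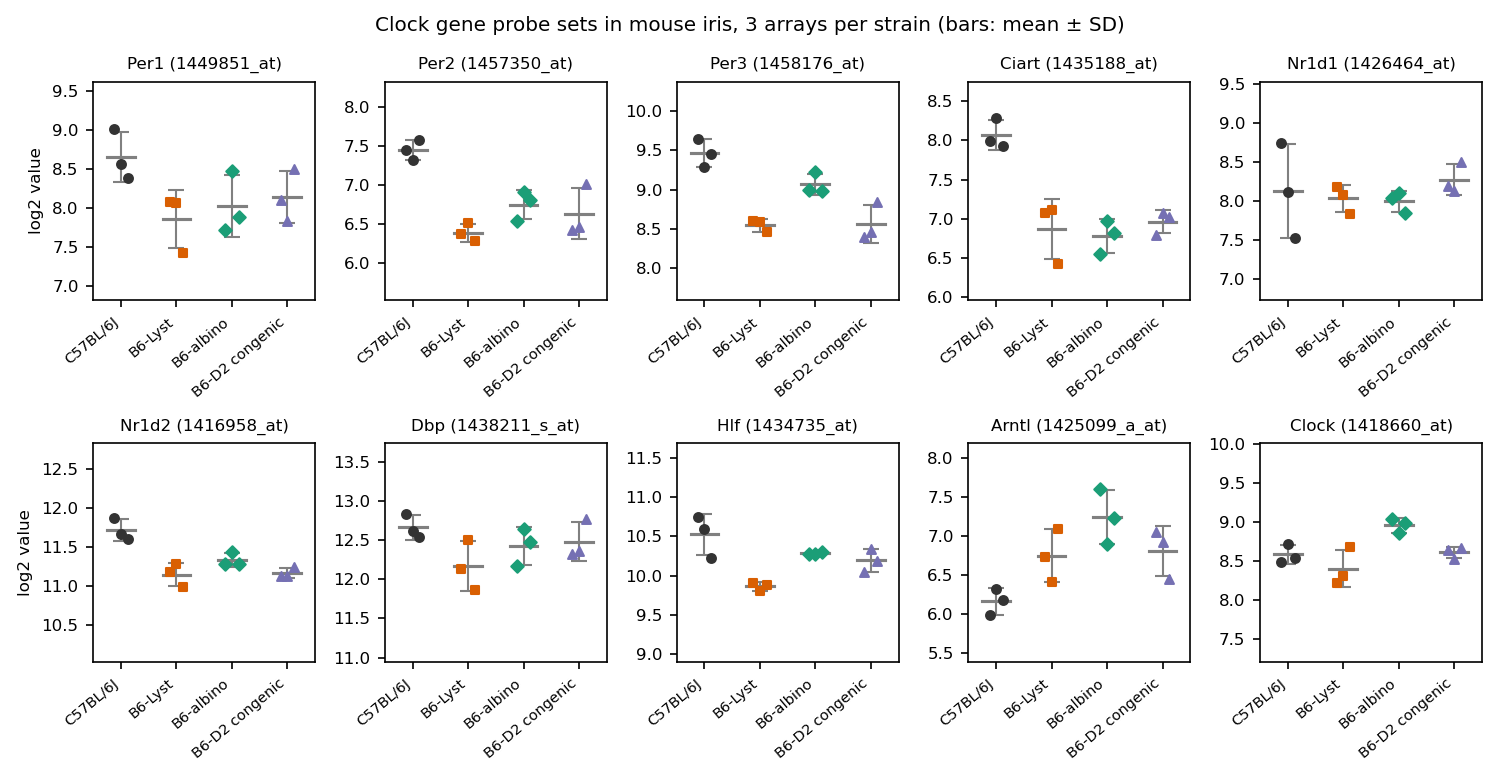
Log2 value of 1 probe set for each of the 10 clock genes (the tested probe set with the highest mean), with 1 panel per gene, the 4 strains on the x axis, points for single arrays and bars for mean ± SD (n = 3). In the Ciart panel the 3 C57BL/6J points, at 7.93 to 8.29, stand above all 9 mutant points, whereas in the Nr1d1 panel the C57BL/6J points, at 7.53 to 8.74, span those of every other strain.

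NR1D1 and NR1D2 are the REV-ERB repressors of Arntl, and their genes gave different readings. On Nr1d2 1416958_at the C57BL/6J arrays read 11.88, 11.67 and 11.61 and the B6-Lyst arrays 11.18, 11.28 and 10.99. B6-albino arrays read 11.28, 11.44 and 11.28, and B6-D2 congenic arrays 11.13, 11.13 and 11.25. All 9 mutant arrays lay below the controls. Nr1d2 fell by 0.57 ± 0.12 in B6-Lyst (adjusted p = 0.0332), a call that held only without C57BL/6J replicate 3 or without B6-Lyst replicate 2 (0.0475 to 0.125). It was lost with only the compared strains (0.14), with the tissue marker covariates (0.121) and without the high-Krt12 arrays (0.137), with differences of -0.57, -0.50 and -0.49. The differences of -0.39 in B6-albino (adjusted p = 0.13) and -0.55 in B6-D2 congenic (0.112) did not pass as deposited. After quantile normalization both did, at 0.0276 and 0.0378. The second Nr1d2 probe set was below the filter.

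Nr1d1 1426464_at read 8.74, 8.11 and 7.53 in C57BL/6J, a wider spread (SD 0.61) than in any mutant strain (SD 0.13 to 0.20). B6-Lyst arrays read 8.18, 8.08 and 7.84, B6-albino arrays 8.04, 8.10 and 7.85, and B6-D2 congenic arrays 8.19, 8.13 and 8.50. All 3 mutant strains overlapped the controls. The difference was -0.10 in B6-Lyst (95% interval -0.64 to 0.44), -0.13 in B6-albino (-0.67 to 0.41) and 0.14 in B6-D2 congenic (-0.39 to 0.68). The first 2 intervals include a decrease as large as the Nr1d2 difference in the same strain, and the B6-D2 congenic interval does not. Among the controls Nr1d1 was lowest on replicate 3, the array with the actin 3′ minus 5′ difference of 4.30. With that difference as a covariate, Nr1d1 differed by -0.37 in B6-Lyst (adjusted p = 0.164), -0.41 in B6-albino (0.14), and by -0.11 in the B6-D2 congenic strain (0.729), and without the 3 arrays with high Krt12 the first 2 were 0.21 and 0.15.

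DBP and HLF are PAR bZIP factors that carry the clock's rhythm to output genes. On Dbp 1438211_s_at, C57BL/6J arrays read 12.84, 12.62 and 12.54, and B6-Lyst arrays 12.14, 12.50 and 11.87. B6-albino arrays read 12.17, 12.64 and 12.48, and B6-D2 congenic arrays 12.32, 12.36 and 12.77. The B6-Lyst arrays lay below the controls, and the other strains overlapped them. The differences were -0.50 (adjusted p = 0.204), -0.24 (0.505) and -0.18 (0.635). On the second Dbp probe set, 1418174_at, the controls read 11.27, 10.43 and 9.59 (SD 0.84), lowest again on replicate 3. The B6-Lyst difference there was -0.50 ± 0.36 (adjusted p = 0.513), and -0.89 with the actin difference as a covariate (0.0357). After quantile normalization the B6-Lyst difference on 1438211_s_at passed (0.0428).

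On Hlf 1434735_at the C57BL/6J arrays read 10.75, 10.60 and 10.23, and the B6-Lyst arrays 9.91, 9.80 and 9.88. B6-albino arrays read 10.27, 10.28 and 10.30, and B6-D2 congenic arrays 10.05, 10.34 and 10.19. The B6-Lyst arrays were the lowest of all 12. Hlf fell by 0.66 ± 0.14 in B6-Lyst (adjusted p = 0.0311), a call that held only without C57BL/6J replicate 3 (0.00729 to 0.111). It was lost with only the compared strains (0.124), with the tissue marker covariates (0.0601) and without the high-Krt12 arrays (0.109), with differences of -0.66, -0.60 and -0.55. The differences of -0.24 and -0.33 in the other strains did not pass. On 1434736_at the B6-Lyst arrays read 8.90, 9.22 and 9.02, below the controls at 9.29, 9.29 and 9.50, and the difference of -0.31 did not pass (adjusted p = 0.538). The 2 Hlf probe sets thus had the same direction in B6-Lyst and differed in size and in passing the test.

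Arntl encodes BMAL1, the DNA-binding partner of CLOCK, and its mean was higher in each mutant strain than in C57BL/6J. On 1425099_a_at, C57BL/6J arrays read 5.99, 6.33 and 6.19, and B6-Lyst arrays 6.74, 6.42 and 7.10. B6-albino arrays read 7.60, 6.90 and 7.24, and B6-D2 congenic arrays 7.06, 6.93 and 6.45. No mutant array fell within the control range. The difference was 0.58 ± 0.22 in B6-Lyst (adjusted p = 0.199), 1.08 ± 0.22 in B6-albino (a 2.11-fold higher level, adjusted p = 0.0608) and 0.65 ± 0.22 in B6-D2 congenic (0.191), so that none passed. On 1457740_at the C57BL/6J arrays, at 5.49, 5.43 and 5.30, were themselves below the filter value. The B6-albino arrays read 6.54, 5.94 and 6.72, a difference of 0.99 (adjusted p = 0.0691) that passed after quantile normalization (0.0483).

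Clock was read by 4 probe sets, of which 3 were tested. On 1435775_at, C57BL/6J arrays read 8.26, 8.16 and 8.12, and B6-albino arrays 8.71, 8.93 and 8.83. B6-Lyst arrays read 8.33, 8.12 and 8.11, and B6-D2 congenic arrays 8.45, 8.43 and 8.43. The B6-albino arrays were the highest of all 12 and B6-Lyst lay with the controls. The B6-D2 congenic arrays lay between these, above all controls, with a difference of 0.26 that did not pass (adjusted p = 0.255). Clock rose by 0.64 ± 0.11 in B6-albino (adjusted p = 0.0439). That call was lost when any 1 of its 6 arrays was left out (0.0591 to 0.145), with tissue marker covariates (0.379) and without the high-Krt12 arrays (0.246). The difference itself was 0.65 with the covariates, 0.74 without the high-Krt12 arrays and 0.59 to 0.70 when 1 array was left out. It also missed the threshold with no filter (0.0541), the 60th percentile filter (0.0502), the actin covariate (0.0511) and only the compared strains (0.132). The other 2 tested Clock probe sets gave 0.52 ± 0.10 (1418659_at, adjusted p = 0.0513) and 0.37 (1418660_at, 0.166) in B6-albino. In B6-D2 congenic they gave 0.24 (1418659_at, adjusted p = 0.247) and 0.03 (1418660_at, 0.937). Its arrays lay above all controls on the first and overlapped them on the second.

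The arrays were also compared by overlap alone. In B6-Lyst, 12 of 19 clock probe sets had all 3 arrays below all 3 controls, where 14.6% of all tested probe sets did, and 2 had all 3 above (8.15% of all). In B6-albino, 8 were lower (11% of all) and 5 higher (12.5%). In B6-D2 congenic, 6 were lower (9.34%) and 4 higher (8.79%).

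The next question was whether the mutant strains differed from one another. Only Clock did: on 1435775_at and 1418659_at it was lower in B6-Lyst than in B6-albino, by 0.63 ± 0.11 (adjusted p = 0.0113) and 0.51 ± 0.10 (adjusted p = 0.0226). These 2 of 19 compare with 1.84% of all tested probe sets called and 0.574% called lower. The third tested Clock probe set differed by -0.55 ± 0.13 (adjusted p = 0.0648). The first call was lost without B6-Lyst replicate 2, B6-Lyst replicate 3 or B6-albino replicate 2 (0.0207 to 0.0683 over 6 fits), and the second held only without B6-albino replicate 3 (0.0476 to 0.113). Both were lost with lens, retina and cornea marker covariates (0.109 and 0.111) and without the high-Krt12 arrays (0.0572 and 0.146), the second also after quantile normalization (0.0772). With the covariates the differences were -0.61 and -0.56, and without the high-Krt12 arrays -0.69 and -0.49.

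Between B6-Lyst and B6-D2 congenic limma called 0 of 19 clock probe sets, against 0.933% of all, with 3 at an unadjusted p under 0.05 (9.7% of all). Between B6-albino and B6-D2 congenic limma called 0 of 19, against 0.0851% of all, with 4 at an unadjusted p under 0.05 (8.49%). The closest to a call in that pair were Clock 1435775_at, 0.38 higher in B6-albino, and Per3 1458176_at, 0.50 higher (adjusted p = 0.406 and 0.407). In order of level, Per3 1458176_at ran C57BL/6J (9.47 ± 0.18, SD), B6-albino (9.07 ± 0.14), B6-D2 congenic (8.56 ± 0.24) and B6-Lyst (8.54 ± 0.08), and the last 2 did not differ beyond their spread. Per2 1457350_at ran C57BL/6J (7.45 ± 0.13), B6-albino (6.75 ± 0.19), B6-D2 congenic (6.64 ± 0.33) and B6-Lyst (6.40 ± 0.12), and no neighbouring mutant strains differed beyond their spread. Arntl 1425099_a_at ran B6-albino (7.25 ± 0.35), B6-D2 congenic (6.82 ± 0.32), B6-Lyst (6.75 ± 0.34) and C57BL/6J (6.17 ± 0.17).

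Arntl and its targets oscillate out of phase, so the relation of Arntl to each of the other 9 genes was followed across arrays, with 1 probe set per gene. The 3 C57BL/6J arrays stood apart from the other 9 on Arntl, Ciart and Per2, so a value over all 12 arrays partly repeats the strain difference. Over 12 arrays, 5 of 9 relations passed by Pearson r after adjustment for the 9 tests (permutation test, two-sided, 100000 resamples). These were Ciart, Per1, Per2, Nr1d2 and Dbp, all negative. By Spearman rho, 3 of 9 passed (Ciart, Per1 and Dbp), and Per2 and Nr1d2 did not (rho -0.64 and -0.62, adjusted permutation p = 0.0633 for both). For Per1, r was -0.80 (adjusted permutation p = 0.00837) and rho was -0.78 (adjusted permutation p = 0.0163). For Dbp, r was -0.67 (adjusted permutation p = 0.0302) and rho was -0.69 (adjusted permutation p = 0.0456).

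Within the 9 mutant arrays, none of the 9 relations passed. The strongest was Ciart, with r = -0.75 (exact permutation p = 0.0196, adjusted 0.101). Its rho was -0.80 (exact permutation p = 0.0138, adjusted 0.124). Clock followed with r = 0.74 (exact permutation p = 0.0224, adjusted 0.101). Per1 gave r = -0.60 and Dbp -0.50 there, with adjusted exact permutation p-values of 0.217 and 0.302. Leaving out the 2 arrays farthest from the Arntl median, C57BL/6J replicate 1 and B6-albino replicate 1, kept Ciart alone past the test. Over those 10 arrays r was -0.68 for Per1, -0.67 for Per2 and -0.68 for Nr1d2 (adjusted permutation p = 0.0801 for each), and -0.52 for Dbp (0.184). The Per2 and Nr1d2 coefficients had been -0.71 and -0.70 over 12 arrays, so they moved little while missing the threshold. Without C57BL/6J replicate 1 alone, 1 relation passed. The 3 control arrays are too few for a value of their own.

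With each strain's mean removed, arrays with more Arntl had less Dbp (r = -0.96), Per1 (-0.86), Per2 (-0.86), Nr1d2 (-0.83) and Per3 (-0.81). These values are given without a test. In B6-Lyst, B6-albino and B6-D2 congenic, the order of the 3 arrays by Dbp was exactly the reverse of their order by Arntl, and the same held for Per2. The exact reversal was seen in 2 of 4 strains for Per3, Ciart and Nr1d2, in 1 for Per1 and in 0 for Nr1d1 and Hlf. The order by Clock followed that by Arntl exactly in 2 of 4 strains. With 3 arrays few orders are possible, and the share of all tested probe sets with such orders was not counted. Ciart (r = -0.64), Nr1d1 (-0.43) and Hlf (-0.08) gave weaker values, and Clock 0.59. Over the same deviations Arntl had r = 0.55 with the retina marker mean, 0.39 with the lens marker mean and 0.37 with the poly-A spike-in level. It had r = 0.29 with the actin difference, 0.10 with the cornea marker mean and -0.26 with the macrophage marker mean. The part of these measures in the pattern was not tested.

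**Figure D3:**
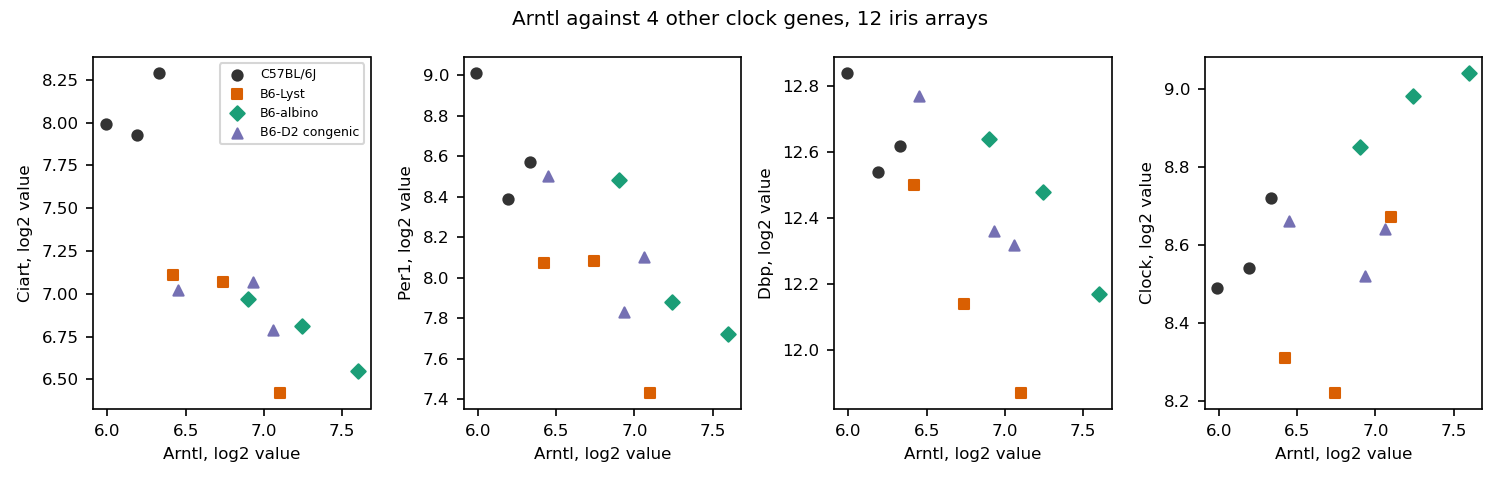
Log2 value of Ciart, Per1, Dbp and Clock (y axes) against Arntl (x axis) on the 12 arrays, with colour and symbol for strain. Within B6-Lyst, B6-albino and B6-D2 congenic the array with the most Arntl has the least Dbp, and all 3 C57BL/6J arrays lie left of the others, at an Arntl value of 5.99 to 6.33.

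Other genes of the clock and its inputs were read from 4 lists that hold 56 genes, of which 48 were tested, each by 1 probe set. Against C57BL/6J, 1 gene fell and 2 rose in B6-Lyst, where 2.53% of all tested probe sets were called and 1.28% were called lower. None of the 48 was called by limma in B6-albino or in the B6-D2 congenic strain, where 0.348% and 0.0407% of all tested probe sets were. In those strains 14 and 8 of the 48 had an unadjusted p under 0.05, beside 19.4% and 17.8% of all tested probe sets. Of 12 negative limb genes and modifiers, Gsk3b, a kinase that phosphorylates clock proteins, fell in B6-Lyst by 0.60 ± 0.13 (adjusted p = 0.0364), from 10.40, 10.37 and 10.36 to 9.76, 9.86 and 9.70. That call was lost when any 1 of its 6 arrays was left out (0.0577 to 0.147) and after quantile normalization (0.0543). It was also lost with no filter (0.0513), only the compared strains (0.0786) and replicate number as a block (0.0534). The same held with the tissue marker covariates (0.105) and without the high-Krt12 arrays (0.061). Over these settings the Gsk3b difference was -0.61 to -0.57. The PER partner genes Cry1 and Cry2 differed by -0.43 (adjusted p = 0.188) and -0.58 (0.219) in B6-Lyst. No gene among the 8 tested of the positive limb and ROR list was called in any pair, nor any of the 13 tested output genes. The output gene nearest to a call was Usp2, a deubiquitinase, with controls at 9.38, 9.56 and 9.42, B6-Lyst arrays at 8.36, 8.95 and 8.37, and a difference of -0.89 (adjusted p = 0.0546). Tef, the third PAR bZIP factor, differed by -0.49 in B6-Lyst (adjusted p = 0.157), and Wee1, a cell cycle kinase under clock control, by -0.43 (0.095).

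Of the 15 tested genes inducible by light or hormones, Fos and Egr1, immediate early transcription factors, rose in B6-Lyst. Fos read 6.62, 7.35 and 7.13 in C57BL/6J and 8.90, 9.32 and 9.11 in B6-Lyst, a rise of 2.08 ± 0.26 (adjusted p = 0.000897). Egr1 read 8.12, 8.19 and 8.39 in C57BL/6J and 8.95, 9.27 and 9.01 in B6-Lyst, a rise of 0.84 ± 0.14 (adjusted p = 0.00945). Both calls held in 6 of 6 fits without 1 array, and the Egr1 call was lost with only the compared strains in the fit (0.052). Fos differed from C57BL/6J by 0.56 in B6-albino (adjusted p = 0.255) and 1.22 in B6-D2 congenic (0.105). Neither passed, although the arrays of both strains lay above all controls. Egr1 differed by 0.11 in B6-albino (0.696) and by 0.51 in B6-D2 congenic (0.147), where the arrays lay above all controls. The macrophage markers were also higher in B6-Lyst than in C57BL/6J, and their part in the Fos and Egr1 values was not tested.

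Fos, Junb and Egr1 were also higher in B6-Lyst than in B6-albino, by 1.52, 1.03 and 0.73 (adjusted p = 0.00981, 0.0291 and 0.0245). The Fos call was lost without B6-Lyst replicate 2 or B6-albino replicate 1 (0.0158 to 0.0623), the Junb call held only without B6-albino replicate 2 (0.0462 to 0.14), and the Egr1 call only without B6-albino replicate 3 (0.0265 to 0.114). With the tissue marker covariates the Fos and Egr1 calls were lost (adjusted p = 0.0598 and 0.136), with differences of 1.61 and 0.62. The Egr1 call was also lost without the high-Krt12 arrays (0.133) and with only the compared strains (0.0519), with differences of 0.62 and 0.73. The list medians in B6-Lyst against C57BL/6J were -0.14, -0.17, -0.07 and -0.09 for the negative limb, positive limb, output and inducible lists, beside -0.02 for all tested probe sets.

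**Figure D4:**
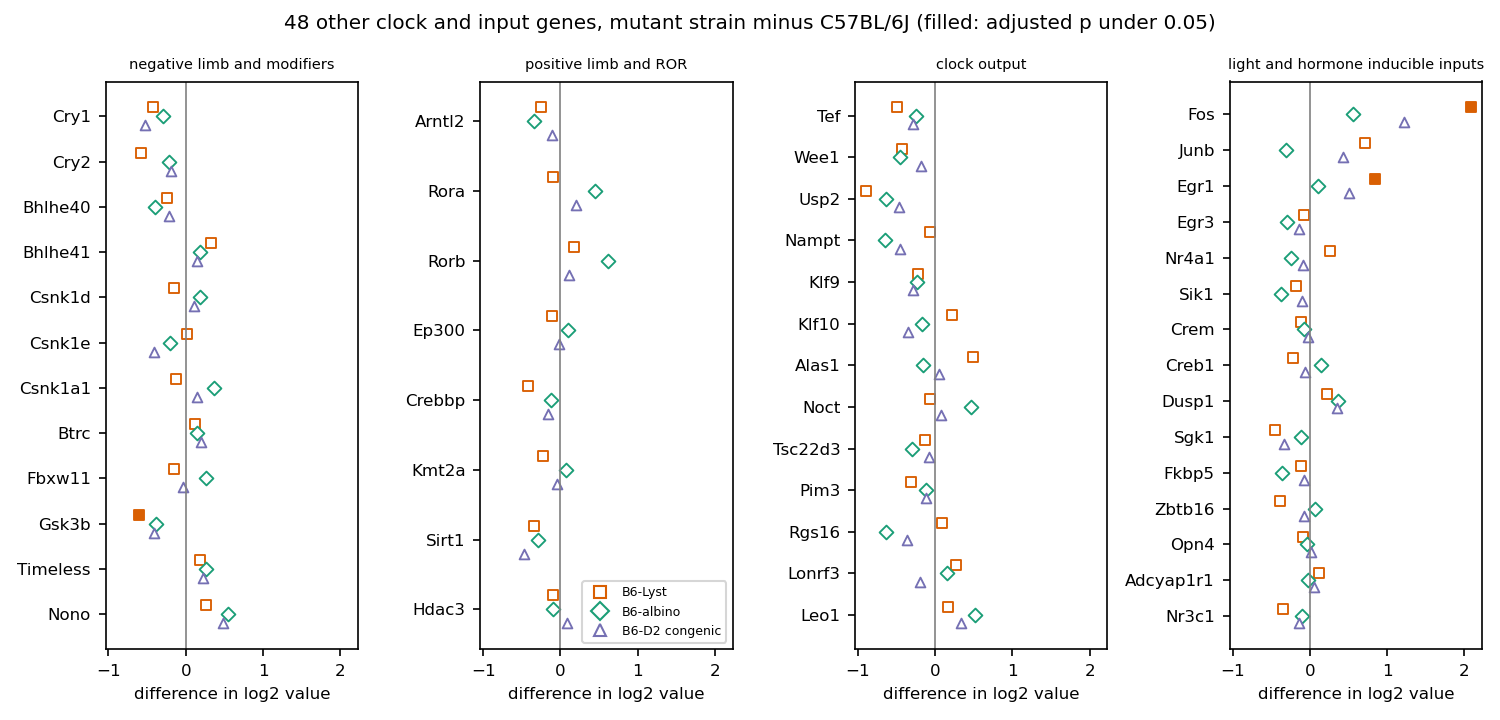
Difference from C57BL/6J in log2 units (x axes) of the 48 other clock and input genes in 4 lists, with squares for B6-Lyst, diamonds for B6-albino and triangles for B6-D2 congenic, and filled symbols at an adjusted p under 0.05. The 3 filled symbols are Gsk3b, left of 0, and Fos and Egr1, right of 0, all in B6-Lyst.

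The genes most alike to 3 of the clock genes were found by Pearson r over the 12 arrays among all tested probe sets, and these values carry the strain difference with them. Ciart was most like Per2 1417602_at (r = 0.94), then Dsn1 and Rrm2b (both 0.92), Inpp4a and Kansl1l (both 0.91). Per2 1457350_at was most like Per3 1441445_at (r = 0.97), then Cd47 and Clcc1 (both 0.96), D130051D11Rik and Mib1 (both 0.95). Arntl was most like Pak3 and Casz1 (both r = 0.96), then Gramd1b, Daam1 and D430019H16Rik (all 0.91). With strain means removed, r stayed at 0.98 for Per3 with Per2 and at 0.91 for Casz1 with Arntl, and was 0.66 for Per2 with Ciart. Of the named genes outside the clock, Pak3, a p21-activated kinase, was higher in B6-albino by 1.39 (adjusted p = 0.0365), and Cd47, Inpp4a and D130051D11Rik were lower in B6-Lyst by a difference of -0.67, -0.53 and -0.76 (adjusted p = 0.0293, 0.0446 and 0.0341). Without the high-Krt12 arrays or with the tissue marker covariates, the Pak3, Cd47 and Inpp4a calls were lost. The Pak3 call held only without B6-albino replicate 2 (0.0336 to 0.163), and the other 3 only without C57BL/6J replicate 1 (0.0302 to 0.149).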

How the data were processed

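RNA of 12 iris samples was measured on Affymetrix arrays with biotin-labelled cRNA. Per the labels, samples of a strain are biological replicates. The values are the log2 expression values deposited by the authors, 1 column per array. How background, normalization and probe summary were done is not given in the sources used here. Of 45101 probe sets, 64 were controls. Of the rest, 34945 had 1 gene symbol in the platform annotation, 932 several and 9160 none. The 10 clock genes matched the RefSeq table.

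Probe sets with a mean at or above the 40th percentile (27022) were fitted with limma 3.58.1 in R 4.3.3, with 1 mean per strain over all 12 arrays and an intensity trend. The 6 pairs and an F test were adjusted by Benjamini-Hochberg. The fit was tested on simulated data. Correlations used Python 3.11.15 and scipy 1.17.1. The probe set with the highest mean stood for a gene in the correlations and the other lists. Every clock probe set was named, with up to 4 genes per list by smallest p and the 5 genes most alike to Ciart, Per2 and Arntl. With 3 arrays a strain, the number of arrays limits the precision. The replicate numbers did not pair the samples. The members and lists were chosen with earlier results of these data known. Alternatives changed the filter, scaling, prior, samples, covariates, weights and block.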

Additional observations from a re-analysis of the deposited data

How the results depend on the processing

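The counts below are clock probe sets called by limma. In B6-Lyst against C57BL/6J the count was 8, and 5 with only the compared strains, 4 without the 3 arrays with high Krt12, and 5 to 9 when 1 array was left out, with 5 left when the array taken out was C57BL/6J replicate 2 or replicate 1 or 3 of B6-Lyst. In B6-albino against C57BL/6J the count of 3 became 1 with the 60th percentile filter, 5 with quantile normalization, 16 with array weights, and 0 with only the compared strains, the replicate block, the lens, retina and cornea covariates, or without high-Krt12 arrays, and was 0 to 3 when 1 array was left out. In B6-D2 congenic against C57BL/6J the count of 1 became 3 with quantile normalization, 4 with 75th percentile scaling, 9 with array weights, and 0 with the 60th percentile filter, only the compared strains, the tissue covariates or the actin covariate, and was 0 to 1 when 1 array was left out. Between B6-Lyst and B6-albino the count of 2 became 1 with quantile normalization or the replicate block, 4 with the actin covariate, 9 with array weights, and 0 with the tissue covariates or without high-Krt12 arrays, and was 0 to 2 when 1 array was left out. Between B6-albino and B6-D2 congenic array weights gave 1. The F test's count of 7 became 4 with the replicate block, 2 with the tissue covariates, 1 without high-Krt12 arrays, 15 with array weights and 2 to 8 when 1 array was left out. Calls over the whole table moved too: in B6-albino against C57BL/6J, of 27022 probe sets, array weights (0.312 to 6.23) called 9601, only the compared strains 15, and the replicate block, the tissue covariates and the fit without high-Krt12 arrays 0. The replicate block also ended the B6-Lyst calls of Hlf (adjusted p = 0.0588) and Nr1d2 (0.0604), with 6 called. Same-numbered arrays had correlations of -0.43 to 0.39 in their deviations, so the numbers were not taken as a pairing. Of the Arntl relations, 5 passed over 12 arrays, 1 without high-Krt12 arrays, 1 without the 2 farthest arrays, 0 in the 9 mutant arrays (an alternative chosen after seeing the data) and 1 to 6 when 1 array was left out, with 1 without C57BL/6J replicate 1. The causes were not tested.

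Over the single differences recomputed under another setting (fits without 1 array apart), 565 kept direction and side of the threshold, 36 lost a call and 36 gained one. No called difference changed sign, and 17 uncalled ones did. Nr1d1 became 0.04 with the tissue covariates and 0.21 without high-Krt12 arrays in B6-Lyst, 0.15 without those arrays in B6-albino, and -0.11 with the actin covariate in B6-D2 congenic. Clock 1435775_at in B6-Lyst became -0.04 with the actin covariate. With the tissue covariates, Per3 1421087_at and Dbp 1438211_s_at in B6-albino became 0.11 and 0.01. Without high-Krt12 arrays, Dbp 1418174_at was 0.05 (B6-albino) and 0.20 (B6-D2 congenic). In the latter strain, Hlf 1434736_at became -0.05 (quantile), -0.0014 (75th percentile), -0.01 (tissue covariates) and -0.23 (without high-Krt12 arrays), and Clock 1418660_at -0.04, -0.02, -0.08 and, with array weights, -0.12. When 1 array was left out, the ranges were -0.40 to 0.21, -0.43 to 0.18 and -0.16 to 0.45 for Nr1d1 in B6-Lyst, B6-albino and B6-D2 congenic. They were -0.06 to 0.05 and -0.05 to 0.04 for Clock 1435775_at and 1418659_at in B6-Lyst, -0.02 to 0.09 for Clock 1418660_at, -0.73 to 0.11 for Dbp 1418174_at and -0.20 to 0.21 for Hlf 1434736_at in B6-D2 congenic, and -0.07 to 0.33 for Hlf 1434736_at in B6-albino. Signal just above the filter limits Arntl 1457740_at, whose control mean of 5.41 lies under 5.653.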
